A study of Mus musculus with 12 samples.

Results

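The glycolysis enzymes of mouse adipose tissue were followed across a short time course of high-fat feeding. A list of 10 genes was taken, 1 for each enzyme step from glucose phosphorylation to enolase, with 2 genes for phosphofructokinase: Hk2, Gpi1, Pfkl, Pfkp, Aldoa, Tpi1, Gapdh, Pgk1, Pgam1 and Eno1. The rule names genes and uses no measured value. Where a gene had several named probe sets, the one that was brightest on average across the 12 arrays stood for it. By that rule 8 of the 10 genes had a level, carried by 22 probe sets, out of 18194 genes on the array, and all 8 were among the 13313 genes bright enough to be tested. Gpi1 and Eno1 were not analysed here.

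Adipose RNA came from C57Bl/6 mice in 3 groups of 4 arrays. Chow mice ate a diet with 13% of calories from fat throughout, and the 5-day and 14-day groups were switched at 6 weeks of age to a high-fat diet (HFD) with 46% of calories from fat. Every group had eaten chow up to that age. The labels name no fat depot and do not say how old chow mice were when tissue was taken, so diet and age cannot be told apart. No label says whether each array holds RNA of a separate animal, and the p-values below therefore measure the spread between these samples.

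Glycolysis turns glucose into pyruvate in the cytosol. Its first steps spend ATP to phosphorylate and split the sugar, and its later steps recover ATP and NADH. In adipocytes, insulin drives glucose uptake through the transporter Glut4, and the pathway also supplies glycerol 3-phosphate, the backbone of triglycerides, and carbon for new fatty acids. Several of its genes are known targets of hypoxia-inducible factors, which bind short DNA cores.

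The arrays showed adipocyte markers at high levels, together with markers of other tissues that differed between arrays of 1 group. The 8 measured adipocyte markers of 10 listed averaged between 13.74 and 14.24 log2 units on every array. Skeletal muscle markers (11 of 13 measured) were high on a pair of arrays, chow array 3 (12.73) and 5-day array 2 (12.45), against 8.41 to 9.47 on the others. Epididymis and testis markers (5 of 8 measured) stood between 10.50 and 11.24 in 5-day arrays 1 to 3 and at 12.19 in 14-day array 4, against 7.25 to 8.33 elsewhere. Their list was Spink8, Adam7, Gpx5, Crisp1, Lcn5, Defb1, Rnase9 and Adam28. It held no germ cell gene, so testis content was not measured apart from epididymis. Liver markers (9 of 10 measured) ranged from 9.84 to 13.58 in 5-day arrays, from 9.61 to 13.12 in 14-day arrays and from 8.67 to 12.44 in chow arrays. The 14-day array 4 also had the lowest adipocyte mean, 13.74. In bulk tissue, fewer cells of a type and less RNA per cell cannot be told apart.

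The promoters of 4 members are shown because the genes behind them differed in how they varied over the arrays. Tpi1, Pgk1 and Pgam1 moved together, with Pearson correlations of 0.88 for each of their 3 pairs over the 12 arrays, while Hk2 correlated with them at 0.32, 0.46 and 0.40. Each sequence holds the 250 bases before the annotated RefSeq start in GRCm38.p6, written 5′ to 3′ on the gene's strand. Capitals mark the hypoxia response cores ACGTG and GCGTG, also where they lie on the opposite strand and read CACGT and CACGC. The carbohydrate response core CACGTG, which contains the first core on both strands, was found in none of the members' windows.
Hk2, chr6:82774455-82774704, minus strand: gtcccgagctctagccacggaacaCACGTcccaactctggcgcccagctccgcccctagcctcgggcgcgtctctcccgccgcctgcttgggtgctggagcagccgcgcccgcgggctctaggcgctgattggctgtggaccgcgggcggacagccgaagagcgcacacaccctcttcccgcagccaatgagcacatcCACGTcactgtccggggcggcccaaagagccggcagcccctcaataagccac
Tpi1, chr6:124814159-124814408, minus strand: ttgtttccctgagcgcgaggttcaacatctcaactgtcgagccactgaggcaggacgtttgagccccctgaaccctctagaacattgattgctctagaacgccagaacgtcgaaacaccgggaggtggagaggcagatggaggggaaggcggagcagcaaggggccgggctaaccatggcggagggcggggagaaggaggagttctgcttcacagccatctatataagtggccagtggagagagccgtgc
Pgk1, chrX:106186850-106187099, plus strand: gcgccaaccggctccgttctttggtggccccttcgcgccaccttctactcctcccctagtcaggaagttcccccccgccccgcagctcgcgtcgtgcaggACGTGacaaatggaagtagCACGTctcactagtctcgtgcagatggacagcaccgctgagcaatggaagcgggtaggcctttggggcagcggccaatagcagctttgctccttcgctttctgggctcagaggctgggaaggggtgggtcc
Pgam1, chr19:41911621-41911870, plus strand: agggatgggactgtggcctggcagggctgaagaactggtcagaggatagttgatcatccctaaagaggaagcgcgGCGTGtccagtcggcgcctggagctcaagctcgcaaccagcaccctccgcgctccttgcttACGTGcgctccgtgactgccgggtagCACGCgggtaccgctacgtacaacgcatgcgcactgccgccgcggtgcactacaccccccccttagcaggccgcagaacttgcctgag

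The Tpi1 window held neither core, and sites outside the window were not searched. Pgk1 had 2 cores, at 150 and 131 bases before the start, Pgam1 had 3 and Hk2 had 2. Over all 10 listed genes, 11 of 14 windows and 8 of 10 genes held at least 1 core, with Tpi1 and Gpi1 as the exceptions. Some windows of Aldoa and of Eno1 overlap and hold the same cores, so the count of windows includes these more than once. Either core was present in 38.6% of the 32851 promoter windows of the same length. The members' windows were rich in G and C, with a median of 62.8% against 52.4% over all windows. Of all windows in the members' GC range, 50.4% to 71.2%, 49.7% held a core. Both shares are per window, so neither is a background for the count of genes. A match describes the letters of the window and no binding was measured.

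After 5 days of HFD, 7 of the 8 measured glycolysis genes stood above chow, with a median log2 difference of 0.11 over the members and -0.0015 over all genes tested. No glycolysis gene passed limma at an adjusted p under 0.05, nor did any of the 13313 genes (0%). Unadjusted p-values under 0.05 were found for 1345 genes. The triosephosphate isomerase gene Tpi1 had the largest difference of the members, 1.32-fold, followed by the liver-type phosphofructokinase gene Pfkl at 1.16-fold, Pgk1 at 1.14-fold and Pgam1 at 1.10-fold. An unadjusted p under 0.05 in the higher direction was reached by 2 members, Tpi1 and Pfkl, against 4.43% of all genes. In 3 members, Tpi1, Pgk1 and Pgam1, all 5-day arrays lay above all chow arrays, as in 6.49% of all genes. A difference above 0 was found in 49.6% of all genes.

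**Figure D1:**
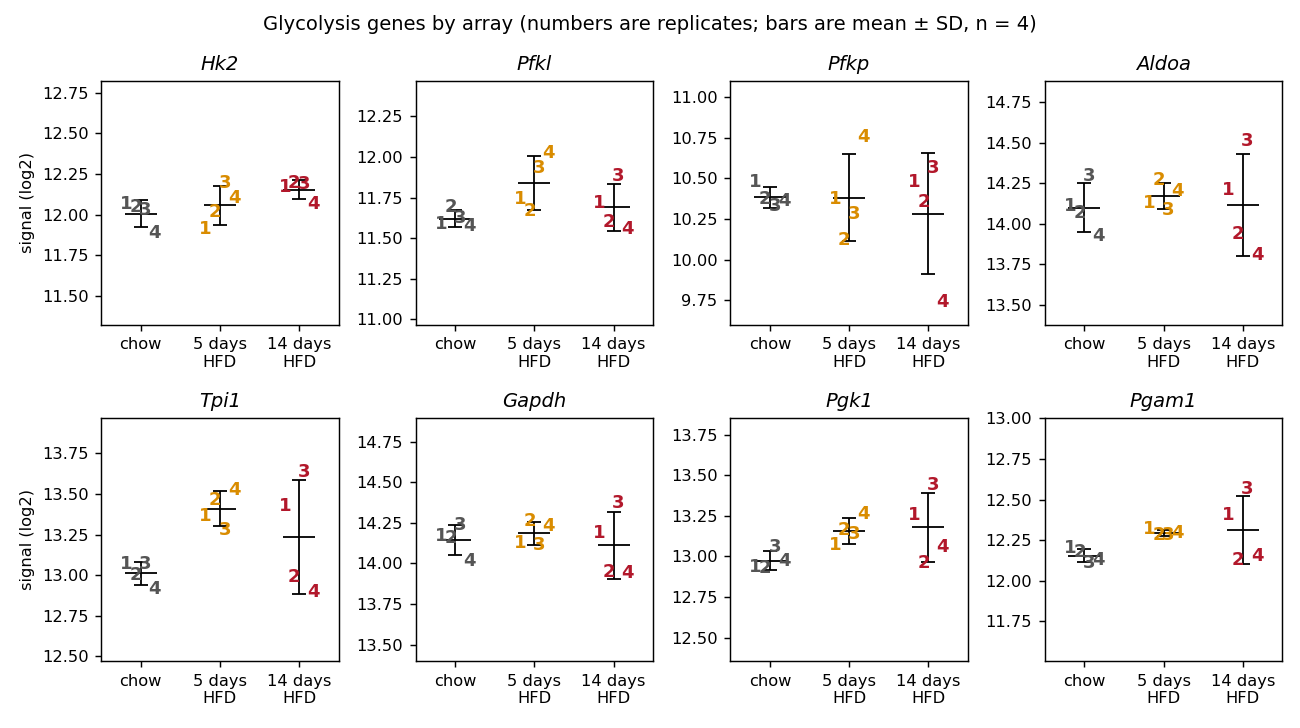
Deposited log2 signal of the 8 measured glycolysis genes (y axis, the same span of log2 units in every panel) in chow, 5-day and 14-day HFD arrays (x axis). Digits are replicate numbers and bars are the mean with SD of 4 arrays. Tpi1, Pgk1 and Pgam1 lie above chow in every 5-day array, and the 14-day arrays 1 and 3 lie above arrays 2 and 4 in most panels.

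Glucose enters the pathway by phosphorylation. Hk2 encodes hexokinase II, the insulin-responsive form that phosphorylates glucose (chr6:82725025-82774454, GRCm38.p6, minus strand). Its levels were 12.06, 12.04, 12.03 and 11.88 in chow arrays 1 to 4, 11.91, 12.02, 12.19 and 12.11 after 5 days, and 12.17, 12.19, 12.19 and 12.07 after 14 days. The 5-day arrays overlapped chow, with a log2 difference of 0.05 ± 0.07 (SE, limma, adjusted p = 0.846). The 14-day arrays lay above chow by a narrow gap, the lowest at 12.067 and the highest chow array at 12.064, with a difference of 0.15 ± 0.07 (limma, adjusted p = 0.625). Hk2 was the single member whose 14-day arrays were closer together than its chow arrays, with SDs of 0.059 and 0.082.

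Phosphofructokinase commits the sugar to glycolysis, and Pfkl (chr10:77986947-78009807, minus strand) and Pfkp (chr13:6579874-6649060, minus strand) encode its liver-type and platelet-type subunits. Pfkl stood at 11.59, 11.69, 11.63 and 11.57 in chow, at 11.74, 11.67, 11.93 and 12.03 after 5 days, and at 11.72, 11.60, 11.88 and 11.56 after 14 days. The groups overlapped, since 5-day array 2 lay below chow array 2. At 5 days Pfkl averaged 11.84 ± 0.17 in HFD arrays and 11.62 ± 0.05 in chow arrays (SD, n = 4 each). The difference was 0.22 ± 0.09 (SE, limma, adjusted p = 0.454), and at 14 days it was 0.07 ± 0.09. Pfkp stood at 10.48, 10.37, 10.33 and 10.36 in chow, at 10.37, 10.12, 10.28 and 10.75 after 5 days, and at 10.48, 10.35, 10.56 and 9.74 after 14 days. Its single highest array was 5-day array 4 and its lowest was 14-day array 4. The Pfkp difference from chow at 5 days, -0.0038 ± 0.17, turned to 0.083 without 5-day array 2, and that at 14 days, -0.10 ± 0.17, turned to 0.079 without 14-day array 4.

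Aldolase splits fructose 1,6-bisphosphate into a pair of triose phosphates, and Aldoa (chr7:126795234-126800994, minus strand) encodes the form found in muscle and most other tissues. Its levels were 14.11, 14.07, 14.29 and 13.93 in chow, 14.13, 14.27, 14.08 and 14.20 after 5 days, and 14.21, 13.94, 14.51 and 13.81 after 14 days. Both arrays with high skeletal muscle markers, chow array 3 and 5-day array 2, had the highest Aldoa of their groups, and the part of muscle RNA in that was not tested. The 14-day arrays held both the highest and the lowest value of all 12. The Aldoa differences from chow were 0.07 ± 0.13 at 5 days and 0.016 ± 0.13 at 14 days, the second turning to -0.12 without 14-day array 3.

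Triosephosphate isomerase converts the triose phosphate that is not yet on the pathway into the one that is, so that all of the sugar's carbon is used. Tpi1 (chr6:124810586-124814158, minus strand) stood at 13.07, 13.00, 13.07 and 12.92 in chow, at 13.36, 13.46, 13.28 and 13.53 after 5 days, and at 13.43, 12.99, 13.63 and 12.90 after 14 days. All 5-day arrays were higher than all chow arrays, while 14-day arrays 1 and 3 lay within or above the 5-day range and arrays 2 and 4 within or below the chow range. The 5-day mean was 13.41 ± 0.11 and the chow mean 13.01 ± 0.07 (SD, n = 4 each). The log2 difference was 0.40 ± 0.14 (SE, limma, 95% interval 0.087 to 0.71, adjusted p = 0.391). Leaving out any single array kept it between 0.36 and 0.44. Epididymis and testis markers were high in 5-day arrays 1 to 3 and at 7.25 in 5-day array 4, where Tpi1 had its highest 5-day level. That array also had the highest liver markers of all arrays (13.58) and a wide gap between the 3′ and 5′ Gapdh control probe sets (0.27), and their part in the Tpi1 level was not tested. At 14 days the difference was 0.22 ± 0.14 (limma, adjusted p = 0.727).

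Glyceraldehyde 3-phosphate dehydrogenase makes the first NADH of the pathway. Gapdh (chr6:125161852-125166467, minus strand) is read here only through the array's own control probe sets, of which the one at the 3′ end was the brightest. It stood at 14.17, 14.16, 14.24 and 14.02 in chow, at 14.13, 14.26, 14.12 and 14.23 after 5 days, and at 14.19, 13.95, 14.37 and 13.94 after 14 days. The groups overlapped at both times. As for Aldoa, chow array 3 and 5-day array 2, both high in skeletal muscle markers, were the highest of their groups. The part of muscle RNA in that was not tested. The Gapdh differences from chow were 0.039 ± 0.09 at 5 days and -0.034 ± 0.09 at 14 days, the first turning to -0.0038 without chow array 4 and the second to 0.020 and 0.023 without 14-day array 2 or 4. The gap between the 3′ and 5′ control probe sets, a measure of RNA integrity, was widest in 14-day array 2 (0.28) and 5-day array 4 (0.27), against 0.064 to 0.13 on the other arrays.

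Phosphoglycerate kinase recovers the first ATP. Pgk1 (chrX:106187100-106203699, plus strand) stood at 12.94, 12.93, 13.06 and 12.97 in chow, at 13.07, 13.16, 13.14 and 13.26 after 5 days, and at 13.26, 12.96, 13.44 and 13.06 after 14 days. The 5-day arrays cleared chow by a narrow gap, 13.069 against 13.060. The difference was 0.18 ± 0.09 at 5 days (SE, limma, adjusted p = 0.529) and 0.20 ± 0.09 at 14 days (adjusted p = 0.623). At 14 days, arrays 1 and 3 again stood highest and array 2 lay inside the chow range.

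Phosphoglycerate mutase moves the phosphate group ahead of enolase. Pgam1 (chr19:41911871-41918665, plus strand) encodes the form of most tissues other than muscle, and stood at 12.20, 12.18, 12.11 and 12.13 in chow, at 12.32, 12.28, 12.28 and 12.29 after 5 days, and at 12.41, 12.13, 12.57 and 12.15 after 14 days. The 5-day arrays lay close together and above every chow array. The mean was 12.29 ± 0.018 in 5-day arrays and 12.15 ± 0.041 in chow arrays (SD, n = 4 each), a log2 difference of 0.14 ± 0.09 (SE, limma, adjusted p = 0.611). The 14-day arrays 1 and 3 were the highest of all 12, and arrays 2 and 4 lay within the chow range, for a difference of 0.16 ± 0.09 (limma, adjusted p = 0.693).

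After 14 days of HFD, 6 of 8 glycolysis genes stood above chow, with a median log2 difference of 0.11, against 0.016 over all genes tested. Again 0 members and 0% of the 13313 genes passed limma at an adjusted p under 0.05, with 1061 genes at an unadjusted p under 0.05. Pgk1 was the 1 member at an unadjusted p under 0.05 in the higher direction, a share of 3.67% over all genes. Hk2 was the 1 member with all 14-day arrays above all chow arrays, a share of 2.37%. A difference above 0 was found in 55.2% of all genes. Pfkp and Gapdh were the 2 members below chow. With array weights, which let limma count variable arrays for less, Tpi1 (0.43, adjusted p = 0.00953), Pgk1 (0.30, adjusted p = 0.0112) and Pgam1 (0.27, adjusted p = 0.0101) passed at 14 days and Tpi1 (0.37, adjusted p = 0.0119) at 5 days. That fit also called 2985 of all genes at 14 days and 2015 at 5 days.

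**Figure D2:**
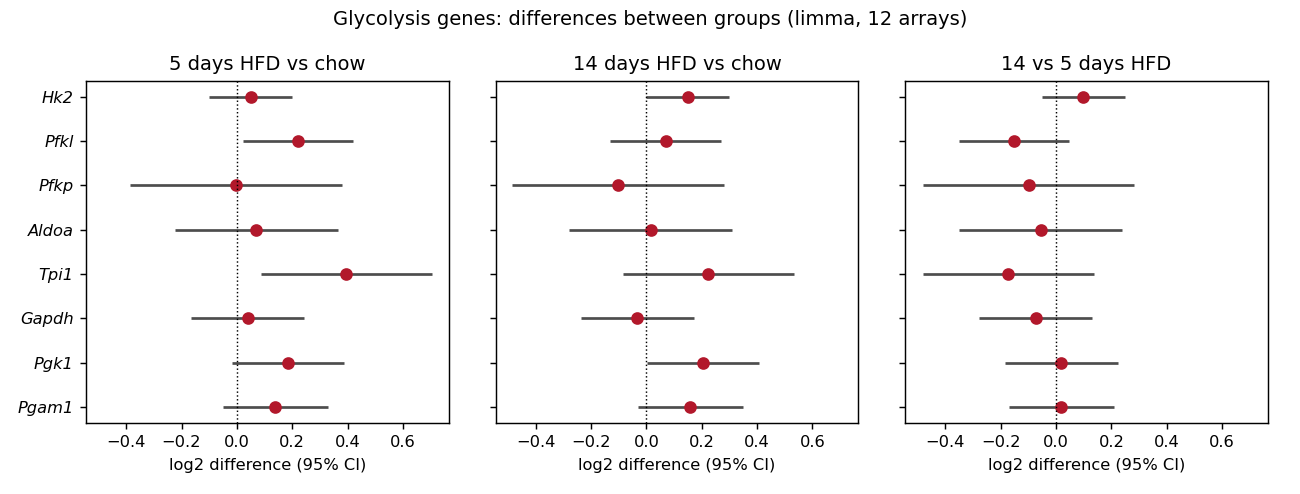
Log2 difference (x axis) of each measured glycolysis gene (rows) in the 3 comparisons, with the 95% interval from limma over 12 arrays. The interval excludes 0 for Tpi1 and Pfkl at 5 days and for Pgk1 at 14 days before adjustment, and for no gene between 14 and 5 days.

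Between 14 and 5 days of HFD, 3 of 8 members stood higher at 14 days, with a median log2 difference of -0.06 over the members and 0.012 over all genes. Tpi1 differed by -0.17 ± 0.14, Pfkl by -0.15 ± 0.09, Pfkp by -0.10 ± 0.17 and Hk2 by 0.098 ± 0.07 (SE, limma, adjusted p = 0.999 for each). No member and 0% of all genes passed, 340 genes had an unadjusted p under 0.05, and no member did, against 1.77% of all genes in the higher direction. No member had all 14-day arrays above all 5-day arrays, against 0.646% of all genes, and a difference above 0 was found in 56% of all genes. Pgk1 and Pgam1 differed by 0.020 each, with intervals of -0.18 to 0.22 and -0.17 to 0.21.

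The separate probe sets of a gene gave 1 direction against chow for Tpi1, Pgk1 and Pfkp. All 3 Tpi1 probe sets placed the 5-day arrays above all chow arrays, with differences of 0.40, 0.36 and 0.50. All 3 Pgk1 probe sets differed in the same direction, by 0.18, 0.11 and 0.16 at 5 days and by 0.20, 0.14 and 0.19 at 14 days. The 3 Pfkl probe sets gave 0.22, 0.08 and 0.03 at 5 days, so that the size rested on the brightest. The last of these averaged 7.32, under the filter cutoff of 7.64. The 3 Pfkp probe sets were all below chow at both times, between -0.19 and -0.0038 at 5 days and between -0.21 and -0.056 at 14 days. The 5 Aldoa probe sets stayed between -0.0098 and 0.078 at both times. Over all 22 probe sets, 18 differed upward at 5 days, 14 at 14 days and 8 between 14 and 5 days. Probe sets whose name ends in x_at, among them the main ones of Aldoa, Tpi1 and Pgk1, may also bind RNA of related sequence, which includes processed pseudogenes.

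**Figure D3:**
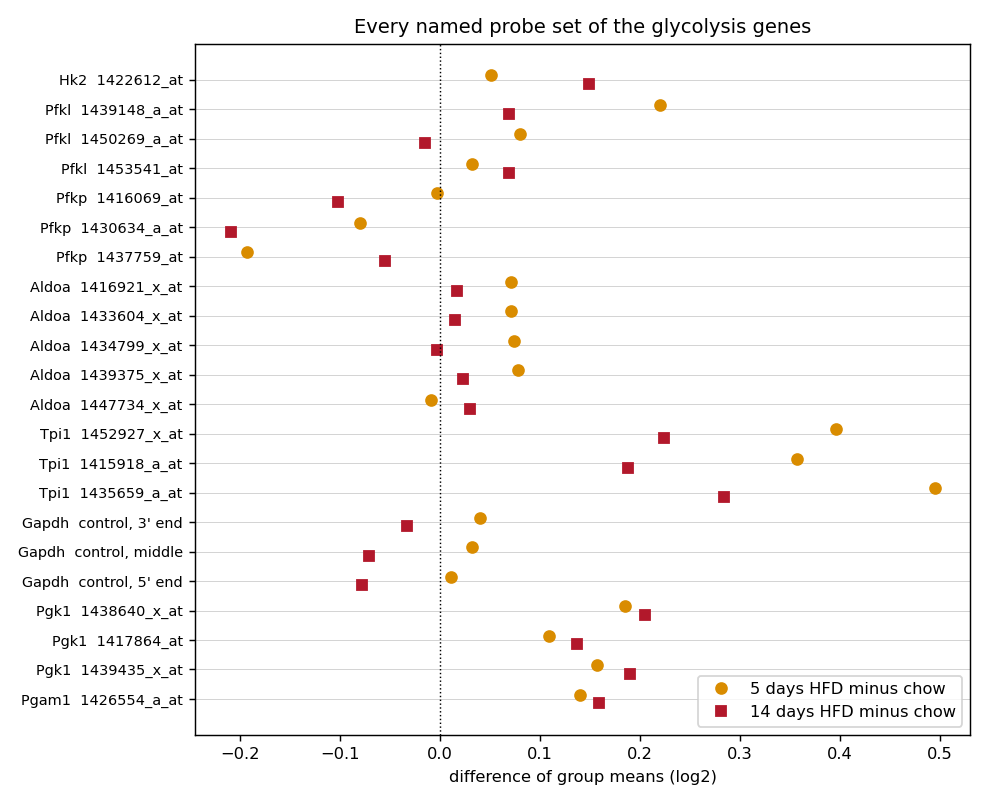
Difference of group means in log2 units (x axis) for each of the 22 named probe sets (rows), 5 days minus chow as circles and 14 days minus chow as squares. All Tpi1 and Pgk1 probe sets lie right of 0 and all Pfkp probe sets left of it at both times.

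The 14-day arrays were more spread out than the chow arrays. The SD was larger at 14 days than in chow for 7 of 8 members, as for 78.5% of all genes, and the median ratio of the SDs was 3.13 for the members and 1.93 for all genes. Averaged over the 8 members, the level lay 0.18, -0.036, 0.34 and -0.15 log2 units from the chow mean in 14-day arrays 1 to 4, and 0.079, 0.11, 0.11 and 0.25 in 5-day arrays 1 to 4. In 14-day arrays 1 and 3 all 8 members were above their chow means, while in arrays 2 and 4 it was 1 and 2 members. Array 2 had the wider gap between Gapdh control probe sets, and array 4 the high epididymis and smooth muscle markers (12.19 and 13.03) and the lowest adipocyte and macrophage markers (13.74 and 9.97). Liver markers stood at 13.12 and 11.96 in arrays 1 and 3 and at 9.61 and 9.63 in arrays 2 and 4. The part of these in the spread of the members was not tested.

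**Figure D4:**
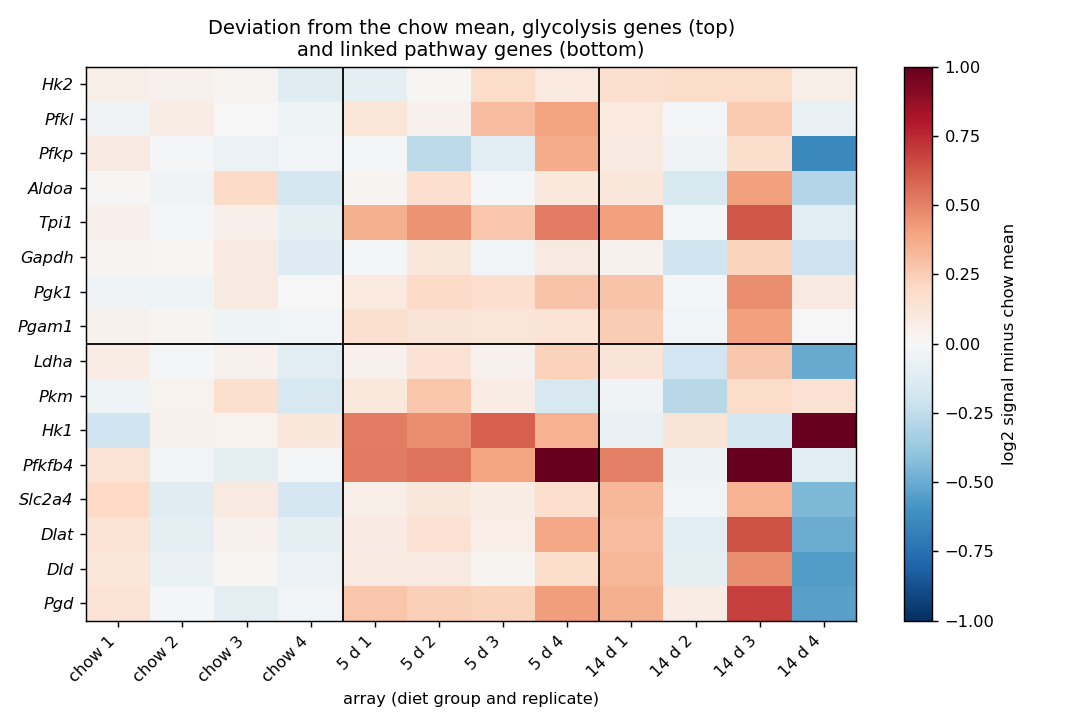
Log2 signal minus the chow mean (colour, with values past 1 in either direction drawn at the end of the scale) for the 8 measured glycolysis genes (upper rows) and 8 genes of linked pathways (lower rows) on each of the 12 arrays (columns). Most members are above the chow mean in 5-day array 4 and 14-day arrays 1 and 3, and below it in 14-day arrays 2 and 4.

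Pearson correlations between members over the 12 arrays ranged from 0.16 to 0.97 in 28 pairs, with a median of 0.56, and 13 pairs lay above 0.6. Without the 2 arrays farthest from the median of the mean of the standardised members, 14-day array 3 and 5-day array 4, the median was 0.39. Aldoa and Gapdh formed the closest pair at 0.97, and Hk2 and Gapdh the loosest at 0.16. All values share the 12 arrays, their normalization and the 3 diet groups, so the correlations describe these arrays. The genes most like the mean of the standardised members were Mrpl10 (0.96), which encodes a protein of the mitochondrial ribosome, Letm1 (0.96), which encodes a protein of the inner mitochondrial membrane, Foxred1 (0.95), whose protein assists assembly of respiratory complex I, Vac14 (0.95) and the gamma-tubulin gene Tubg1 (0.95). They stayed between 0.87 and 0.91 without the 2 farthest arrays. Of the 13305 other genes tested, 99 had a correlation above 0.9, and the median was 0.088.

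Of the other glycolysis enzymes and tissue forms, 14 of 18 listed genes were tested and 0 passed limma in any comparison. An unadjusted p under 0.05 was reached by 1 at 5 days, the sperm form Gapdhs. It was in the higher direction, as for 4.43% of all genes. In the other comparisons 0 of the listed genes reached it. They had median log2 differences of 0.06 at 5 days, -0.04 at 14 days and -0.16 between 14 and 5 days. Pkm, which encodes the last enzyme of the pathway, differed by 0.07 ± 0.12 at 5 days and Ldha, which encodes the lactate dehydrogenase subunit of glycolytic tissue, by 0.12 ± 0.14. Hk1, the widely expressed hexokinase gene, stood at 10.74, 10.69, 10.82 and 10.57 after 5 days, all above the chow values of 10.03, 10.27, 10.27 and 10.34. The Hk1 difference was 0.48 ± 0.25 (SE, limma, adjusted p = 0.551). It passed without 14-day array 4 (adjusted p = 0.0404), without both HFD arrays numbered 4 (0.00844), with only the 2 groups compared (0.037) and with array weights (0.00773). Those fits called 112, 881, 213 and 2015 of all genes at 5 days, in that order. In 14-day array 4 Hk1 stood at 11.48, against 10.05 to 10.36 in the other 14-day arrays. Epididymis and testis markers were highest there (12.19). They were low (7.25) in 5-day array 4, which had the lowest 5-day Hk1, and their part was not tested. Without both HFD arrays numbered 4, the 5-day arrays left all had high levels of these markers. Diet and tissue content cannot be told apart there.

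Several muscle forms were high on the arrays with high skeletal muscle markers, and germ cell forms on those with high epididymis and testis markers. No list of germ cell markers was read. Eno3, which encodes muscle enolase, had its highest levels on the pair with high muscle markers, chow array 3 (11.89) and 5-day array 2 (11.54), against 8.56 to 9.24 on the other arrays. Pgam2, the muscle mutase gene, stood at 10.11 and 9.93 on those arrays and between 7.32 and 8.04 elsewhere, and Pfkm and the muscle glycogen phosphorylase gene Pygm peaked on the same pair. Fbp2, the muscle form of fructose bisphosphatase, did not, with 8.80 and 8.04 on those arrays and a highest level of 9.21 in chow array 2. The 14-day differences of Eno3 (-0.68 ± 0.75) and Pfkm (-0.32 ± 0.36) turned to 0.11 and 0.05 without chow array 3. Gapdhs, the sperm form of Gapdh, stood at 9.35, 9.27, 9.52 and 8.42 in 5-day arrays 1 to 4, at 8.59, 8.58, 8.59 and 9.70 in 14-day arrays, and between 8.41 and 8.64 in chow. Its 5-day difference of 0.65 ± 0.28 did not pass (limma, adjusted p = 0.471), but passed at 0.89 without both HFD arrays numbered 4 (adjusted p = 7.08e-05), and at 0.86 once arrays were weighted (adjusted p = 0.00146). Ldhc, the testis lactate dehydrogenase gene, was high on the same 4 arrays, those with epididymis and testis markers at or above 10.50. Its 5-day difference of 0.84 ± 0.42 (limma, adjusted p = 0.527) passed in the same 2 settings (adjusted p = 0.00309 and 0.0059). Without both HFD arrays numbered 4, every 5-day array left had epididymis and testis markers at or above 10.50, and no chow array did. Diet and tissue content cannot be told apart in that fit.

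**Figure D5:**
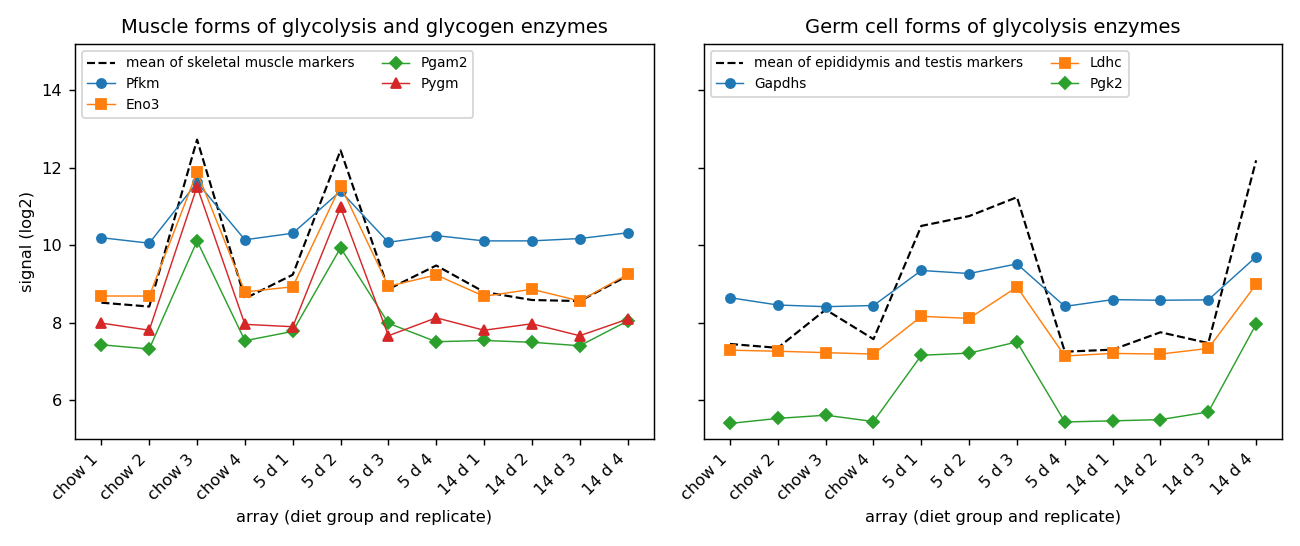
Log2 signal (y axis) by array (x axis) of muscle forms (left) and germ cell forms (right) of glycolysis and glycogen genes. Dashed lines are the mean of skeletal muscle markers (left) and of epididymis and testis markers (right). The muscle forms peak in chow array 3 and 5-day array 2, and the germ cell forms are high in 5-day arrays 1 to 3 and 14-day array 4. Pgk2 was below the filter and was chosen after its values were seen, and levels are compared along each line, not between genes.

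Upstream and around the pathway no gene passed limma over all 12 arrays at equal weight. With array weights, which called 2015 of all genes at 5 days, the 5-day differences of Pfkfb4, Slc2a3, Pdk4, Pdk2, Pdp1, Pck1, Mlxipl and Ppargc1a passed at adjusted p-values between 0.00834 and 0.0314, and Pfkfb4 also at 14 days (adjusted p = 0.0136). Without both HFD arrays numbered 4, Slc2a3 (adjusted p = 0.0164) and Pdp1 (adjusted p = 0.0364) passed at 5 days. The 5-day arrays left in that fit all had high epididymis and testis markers, so diet and tissue content cannot be told apart there. Of the glycolytic switches, 4 of 5 genes were tested, and Pfkfb4, one of the enzymes that make the phosphofructokinase activator fructose 2,6-bisphosphate, stood at 9.81, 9.83, 9.69 and 10.32 after 5 days against 9.43, 9.26, 9.21 and 9.28 in chow. The Pfkfb4 difference was 0.62 ± 0.22 at 5 days (SE, limma, adjusted p = 0.393), and at 14 days arrays 1 and 3 stood at 9.80 and 10.30 and arrays 2 and 4 at 9.24 and 9.19. Pfkfb3 differed by -0.10 ± 0.16 at 5 days. Among 7 of 9 transporter genes tested, Slc2a4, the Glut4 gene, differed by 0.10 ± 0.16 and 0.05 ± 0.16 at 5 and 14 days, and Slc2a3 by 0.38 ± 0.21 at 5 days, with every 5-day array above chow. Slc2a3 was highest, at 12.75, in 14-day array 4, where epididymis and testis markers were highest too (12.19), and their part was not tested.

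The fate of pyruvate is set by the pyruvate dehydrogenase complex and the kinases that inhibit it, of which 13 of 14 genes were tested. At an unadjusted p under 0.05, 2 were higher and 2 lower at 5 days, against 4.43% and 5.67% of all genes, and 1 was lower at 14 days, against 4.3%. At 5 days the kinase genes Pdk4 and Pdk2 differed in opposite directions, by 0.34 ± 0.12 and -0.24 ± 0.08 (SE, limma, adjusted p = 0.391 and 0.390). Pdp1, which encodes a phosphatase that reactivates the complex, stood at 9.42, 9.29, 9.41 and 9.48 after 5 days, all below the chow values of 9.71, 9.55, 9.58 and 9.78, and differed by -0.26 ± 0.10 (limma, adjusted p = 0.446). At 14 days Pdp1 differed by -0.27 ± 0.10 (limma, adjusted p = 0.580). The subunit genes Dlat and Dld differed by 0.17 ± 0.20 and 0.10 ± 0.18 at 5 days. Like Aldoa, Tpi1 and Gapdh they were highest of all arrays in 14-day array 3, at 11.91 and 12.75, and lowest in 14-day array 4, at 10.78 and 11.72.

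In gluconeogenesis and glyceroneogenesis all 10 listed genes were tested. Pck1, whose enzyme makes phosphoenolpyruvate and serves glyceroneogenesis in fat, stood at 14.24, 14.29, 14.34 and 14.38 after 5 days, all below the chow values of 14.41 to 14.44, with a difference of -0.12 ± 0.08 (SE, limma, adjusted p = 0.641). Fbp2, the muscle form of the phosphatase that opposes phosphofructokinase, differed by -0.57 ± 0.27 at 5 days (limma, adjusted p = 0.519). Of the pentose phosphate pathway 6 of 7 genes were tested, and Pgd, an NADPH-producing enzyme gene, stood between 13.23 and 13.42 after 5 days and between 12.91 and 13.14 in chow, a difference of 0.29 ± 0.20 (limma, adjusted p = 0.653). Tkt differed by -0.19 ± 0.14. The 10 tested of 11 glycogen genes had medians of -0.05 at 5 days and -0.07 at 14 days.

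The list of regulators of glycolysis genes also held target genes of hypoxia-inducible factors. Of its 11 genes 10 were tested, and 7 were below chow at each time. Of all 13313 genes, 6712 were below chow at 5 days and 5964 at 14 days. The list had medians of -0.17 at 5 days and -0.11 at 14 days. Ppargc1a, a coactivator of mitochondrial and oxidative genes, differed by -0.62 ± 0.21 at 5 days (SE, limma, adjusted p = 0.382) and Mlxipl, the gene of the glucose-sensing factor ChREBP, by -0.32 ± 0.12 (adjusted p = 0.414). Hif1a differed by 0.13 ± 0.07 at 14 days (limma, adjusted p = 0.703), which turned to -0.022 with the mean of its probe sets. The members had a median of 0.11 at both times. The pyruvate dehydrogenase list had medians of 0.097 at 5 days and 0.037 at 14 days, and the glycolytic switches 0.058 and 0.091. The difference between lists was not tested.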

How the data were processed

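RNA of 12 adipose samples was labelled and hybridised to single-colour Affymetrix arrays, per the labels' protocols. The deposited table of 45098 probe sets is in log2 units, judged from its values (4.18 to 15.50, array medians 8.09 to 8.14). Probe summary and normalization are not given in the sources used here, and unstated normalization can shift small differences. Probe sets were named by the platform annotation: 34945 had 1 symbol, 932 several and 9160 none, beside 61 controls. Each of 18194 genes took its named probe set of highest mean, and Gapdh its control probe sets. Genes under the 40th percentile (7.64) were left out, keeping 13313. All 3 groups were fitted with limma 3.58.1 in R 4.3.3 (eBayes with trend, two-sided, 9 residual degrees of freedom before moderation), with Benjamini-Hochberg adjustment and a threshold of 0.05. The procedure was tested on simulated data. Members, lists and tests were chosen with earlier results of these data known. All members are named, from each other list up to 6 in list order that passed the filter and 2 of smallest p per comparison, and the 5 genes most like the members. Genes outside this rule are marked. Same-numbered arrays were not treated as pairs, since 2 of 12 such pairs correlated above 0.1. Alternatives were median centring, quantile normalization, filters, probe set choice, variance models, array weights, 2 groups only, a replicate block, and arrays left out. Promoters are from RefSeq, GRCm38.p6. Gpi1 and Eno1 were not analysed here. Precision is limited by 4 arrays per group.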

Additional observations from a re-analysis of the deposited data

Results flagged for a closer look

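Over 30 genes in 3 groups, 90 sets of 4 arrays were checked for a single array far from the other 3 by Dixon's test, and 9 stood out. Chance alone gives about 1 in 20 such sets. None of the 9 was a glycolysis gene of the list itself.

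The arrays with high skeletal muscle markers stood apart in muscle enzymes. Pfkm was 11.62 in chow array 3 against 10.05 to 10.19 in the other chow arrays. Eno3 was 11.89 there against 8.69 to 8.79, and 11.54 in 5-day array 2 against 8.92 to 9.23.

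The 14-day array 4, with high epididymis and smooth muscle markers, stood apart in 4 genes. Gapdhs was 9.70 against 8.58 to 8.59 in the other 14-day arrays, and Ldhc was 8.99 against 7.19 to 7.33. Pfkfb3, whose enzyme makes an activator of phosphofructokinase, was 12.81 against 13.36 to 13.47. Pdk4 was 11.74 against 12.15 to 12.22.

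The glucose transporter gene Slc2a1 was 8.87 in chow array 1 against 9.50 to 9.58 in the other chow arrays, and Ppargc1a was 8.84 in 14-day array 2 against 7.97 to 8.08. What sets these arrays apart was not tested.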

How the results depend on the processing

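Of 24 member comparisons, Hk2, Tpi1, Pgk1 and Pgam1 against chow kept their direction at both times under every alternative run, as did Pfkl at 5 days. Several alternatives leave an estimate unchanged, so they could not turn it. These were the filters, eBayes without trend, only the 2 groups compared, the replicate block and leaving out an array of the group not compared. With array weights the 5-day Hk2 difference was 0.0036. The number of members called moved from 0 to 1 at 5 days (Tpi1) with array weights and with only the 2 groups compared, where Tpi1 had adjusted p = 0.0311, and to 3 at 14 days with array weights. Over all genes the calls moved from 0 to 2015, 2985 and 2214 with array weights (5 days, 14 days and 14 against 5 days). They moved to 213 at 5 days with only 2 groups, and to 881, 1 and 723 without both HFD arrays numbered 4. In that last fit every 5-day array left had high epididymis and testis markers, and no chow or 14-day array left did. Leaving out 1 array gave 0 to 112 calls at 5 days and 0 to 20 at 14 days, the highest without 14-day array 4 and 14-day array 2, and 0 to 0 between the HFD times. The members' median between 14 and 5 days turned from -0.064 to 0.11 with array weights and lay between -0.17 and 0.054 with 1 array left out. Values that turned sign were mostly near 0, and the cause was not tested. With array weights, Pfkp turned to 0.10 at 14 days and 0.15 between 14 and 5 days, and between 14 and 5 days Aldoa to 0.11, Tpi1 to 0.065, Gapdh to 0.056 and Ldha to 0.059, with Gapdh at 0.069 at 14 days. Without both HFD arrays numbered 4, Pfkp turned to 0.079 at 14 days and 0.21 between 14 and 5 days, Aldoa to 0.060 between them and Gapdh to 0.023 at 14 days. Without both arrays high in muscle markers, Pfkp and Slc2a1 turned to 0.064 and 0.12 at 5 days, and Pfkm and Eno3 to 0.050 and 0.11 at 14 days. Median centring turned Pfkp to 0.010 at 5 days, quantile normalization Aldoa to -0.0028 at 14 days, and the mean of all probe sets Hif1a to -0.022. Single probe sets turned Pfkl to -0.016 at 14 days and 0.038 between 14 and 5 days, Pfkp to 0.14 between them, and Aldoa to -0.0030 at 14 days, 0.039 between them and -0.0098 at 5 days. The Pfkl value of 0.038 came from a probe set whose mean lay under the filter cutoff. With 1 array left out, ranges that crossed 0 were Pfkp from -0.13 to 0.083 at 5 days, from -0.20 to 0.079 at 14 days and from -0.19 to 0.082 between them, Aldoa from -0.12 to 0.12 at 14 days and from -0.19 to 0.049 between them, Gapdh from -0.0038 to 0.070 at 5 days and from -0.12 to 0.023 at 14 days, Pgk1 from -0.067 to 0.093 and Pgam1 from -0.065 to 0.081 between them, Pfkm from -0.47 to 0.050 and Eno3 from -0.96 to 0.11 at 14 days, and Slc2a1 from -0.20 to 0.071 at 5 days. The replicate number as a block left 0 calls in each comparison, with 1129, 968 and 283 unadjusted p-values under 0.05, and same-numbered arrays correlated between -0.73 and 0.41. Other alternatives (filters, eBayes without trend) changed no call among the members.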

Other observations

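The genes in these paragraphs were chosen after their values were seen. Of the liver forms of glucose genes, some were high on arrays with high liver markers and some were not. Slc2a2, the liver glucose transporter gene, was below the filter and stood at 9.22 in 5-day array 4 and 9.54 in 14-day array 1, where liver markers averaged 13.58 and 13.12, and between 6.57 and 7.81 on the other arrays, with 7.72 in chow array 3 where liver markers averaged 12.44. The glucose 6-phosphatase gene G6pc stood at 9.71 and 9.70 on those arrays. The liver glycogen synthase gene Gys2 was highest in 14-day arrays 3 and 1, at 9.85 and 9.27, above its level in 5-day array 4. Pklr, the liver pyruvate kinase gene, had its lowest level of all arrays, 9.47, in 5-day array 4. Pgk2, the germ cell form of Pgk1, stood at 7.15, 7.21 and 7.499 in 5-day arrays 1 to 3 and 7.96 in 14-day array 4, and between 5.39 and 5.69 elsewhere.

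Aldoc, which encodes aldolase C, correlated at -0.81 with the mean of the standardised members over the 12 arrays and at -0.71 without the 2 farthest arrays. It stood at 8.03 in chow array 1 and between 8.65 and 9.06 in the other chow arrays. Slc2a1, Fbp2 and Ppargc1a had their lowest chow level on the same array, at 8.87, 8.004 and 8.09, and their highest 14-day level in 14-day array 2, at 9.78, 9.01 and 8.84. Their correlations with the members' mean were weaker, at -0.42, -0.40 and -0.45. Aldoc stood at 8.63 there and was higher, at 8.84, in 14-day array 4.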
